A study of Homo sapiens with 9 samples.

Results

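The genes described here are 10 integrin subunits: the alpha subunits ITGA1, ITGA2, ITGA3, ITGA5, ITGA10, ITGA11 and ITGAV and the beta subunits ITGB1, ITGB3 and ITGB5. They were found by symbol among the 37247 Ensembl identifiers of each of 2 count tables, where all 10 are present, and they are 10 of the 26 human integrin genes measured. ITGA10 was chosen by its fold change after dexamethasone in these libraries, and the other 9 genes were listed with earlier results of the same libraries known. For this reason, the dexamethasone values of the listed genes are given as a description with no test.

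The cells were an immortalized line of human trabecular meshwork, the porous tissue that filters aqueous humour as it leaves the eye. All cultures grew on plates coated with type I collagen, itself an integrin ligand, and spent 24 h without serum before treatment. They then received dexamethasone (DEX, a glucocorticoid receptor agonist, 0.1 µM), norepinephrine (NE, the adrenergic transmitter of sympathetic nerves, 1 µM) or the DMSO vehicle for 6 h. There were 3 labelled replicates per group, with no statement that they came from separate cultures, so p-values measure the spread between these samples, which may be technical. In the DEX table, which also held the labelled vehicle samples, a library had 19326830 to 27337259 counts. In the NE table, where libraries had 31104094 to 36216506 counts, the 3 vehicle columns could not be matched to a labelled sample. Each treatment was therefore compared only with vehicle libraries from the same table. As a check of treatment, the glucocorticoid targets FKBP5, TSC22D3 and PER1 were 2.99-, 13.2- and 4.85-fold higher with DEX, and the cAMP-responsive NR4A3 was 3.05-fold higher with NE. These genes did not respond to 1 treatment only: TSC22D3 and PER1 were also 1.38- and 1.90-fold higher with NE, and NR4A3 was lower with DEX (log2 fold change -0.50). Levels are CPM on TMM-adjusted library sizes, TMM being a scaling factor that makes libraries of different composition comparable.

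Integrins are cell-surface receptors made of 1 alpha and 1 beta subunit that join the extracellular matrix to the actin cytoskeleton. ITGA1, ITGA2, ITGA10 and ITGA11 encode the collagen-binding alpha subunits, all of which pair with the ITGB1 product. ITGA5 with ITGB1 forms the main fibronectin receptor, ITGA3 with ITGB1 binds laminins, and ITGAV pairs with several beta subunits, ITGB3 and ITGB5 among them, in receptors for RGD-containing ligands such as vitronectin and fibronectin. In trabecular meshwork these receptors hold cells to the matrix of the outflow pathway, and the ITGAV-ITGB3 receptor has been studied there with the cross-linked actin networks that glucocorticoids induce.

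ITGA10 and ITGA5 had the largest DEX differences of the list, and the sequences in front of these genes are shown for that reason. They are taken from RefSeq (GRCh38.p14), minus strand, 5′ to 3′, and are limited to the part of the 250 bases before the RefSeq start that lies outside every GENCODE 29 exon of the gene. The ITGA10 stretch is chr1:145910190-145910300 and the ITGA5 stretch is chr12:54419461-54419516. Capitals mark TGTTCT, an arm of the glucocorticoid response element, in ITGA10, and CCGCCC, the reverse complement of the GC box GGGCGG, in ITGA5.
ITGA10: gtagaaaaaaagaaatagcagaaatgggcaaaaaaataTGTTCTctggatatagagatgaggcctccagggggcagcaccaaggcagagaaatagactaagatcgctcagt
ITGA5: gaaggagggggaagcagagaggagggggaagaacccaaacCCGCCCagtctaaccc
RefSeq promoters matched 8 of the 10 genes, all but ITGA3 and ITGB3, and the full 250 bases were searched on both strands. The TGTTCT of ITGA10 begins 212 bases before the start, and none of the other 7 matched genes has AGAACA or TGTTCT in its window. Of 35116 promoters, 12.4% hold one of these. The whole element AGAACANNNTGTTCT was in 1 of them (0.00285%) and in none of the 8 genes. The cAMP response element TGACGTCA was in 1.65% of promoters and in none of the 8. GGGCGG or its complement was in 42.6% of promoters and, of the 8 genes, in ITGA2, ITGA5, ITGB1 and ITGB5, so it is not particular to ITGA5. These matches describe the letters in the window and are no measure of binding.

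ITGA10 (ENSG00000143127.12, chromosome 1, 145891208 to 145910189, minus strand, GENCODE 29 on GRCh38) encodes the collagen-binding subunit best known from cartilage cells. Its level was 1.54, 2.02 and 2.11 CPM in the vehicle libraries of the DEX table and 7.51, 10.6 and 9.10 CPM with DEX, from 36 to 56 and from 181 to 287 counts per library. Every DEX library lay above every vehicle library. The DEX level was 4.79-fold the vehicle level (log2 fold change 2.26, SE 0.16), the 25th largest difference in size among 15133 genes. In the NE table ITGA10 stood at 8.28, 7.88 and 10.1 CPM with vehicle and 8.89, 7.90 and 7.75 CPM with NE, and these groups overlap. Its NE log2 fold change was -0.10 (SE 0.11, edgeR adjusted p = 0.75).

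**Figure D1:**
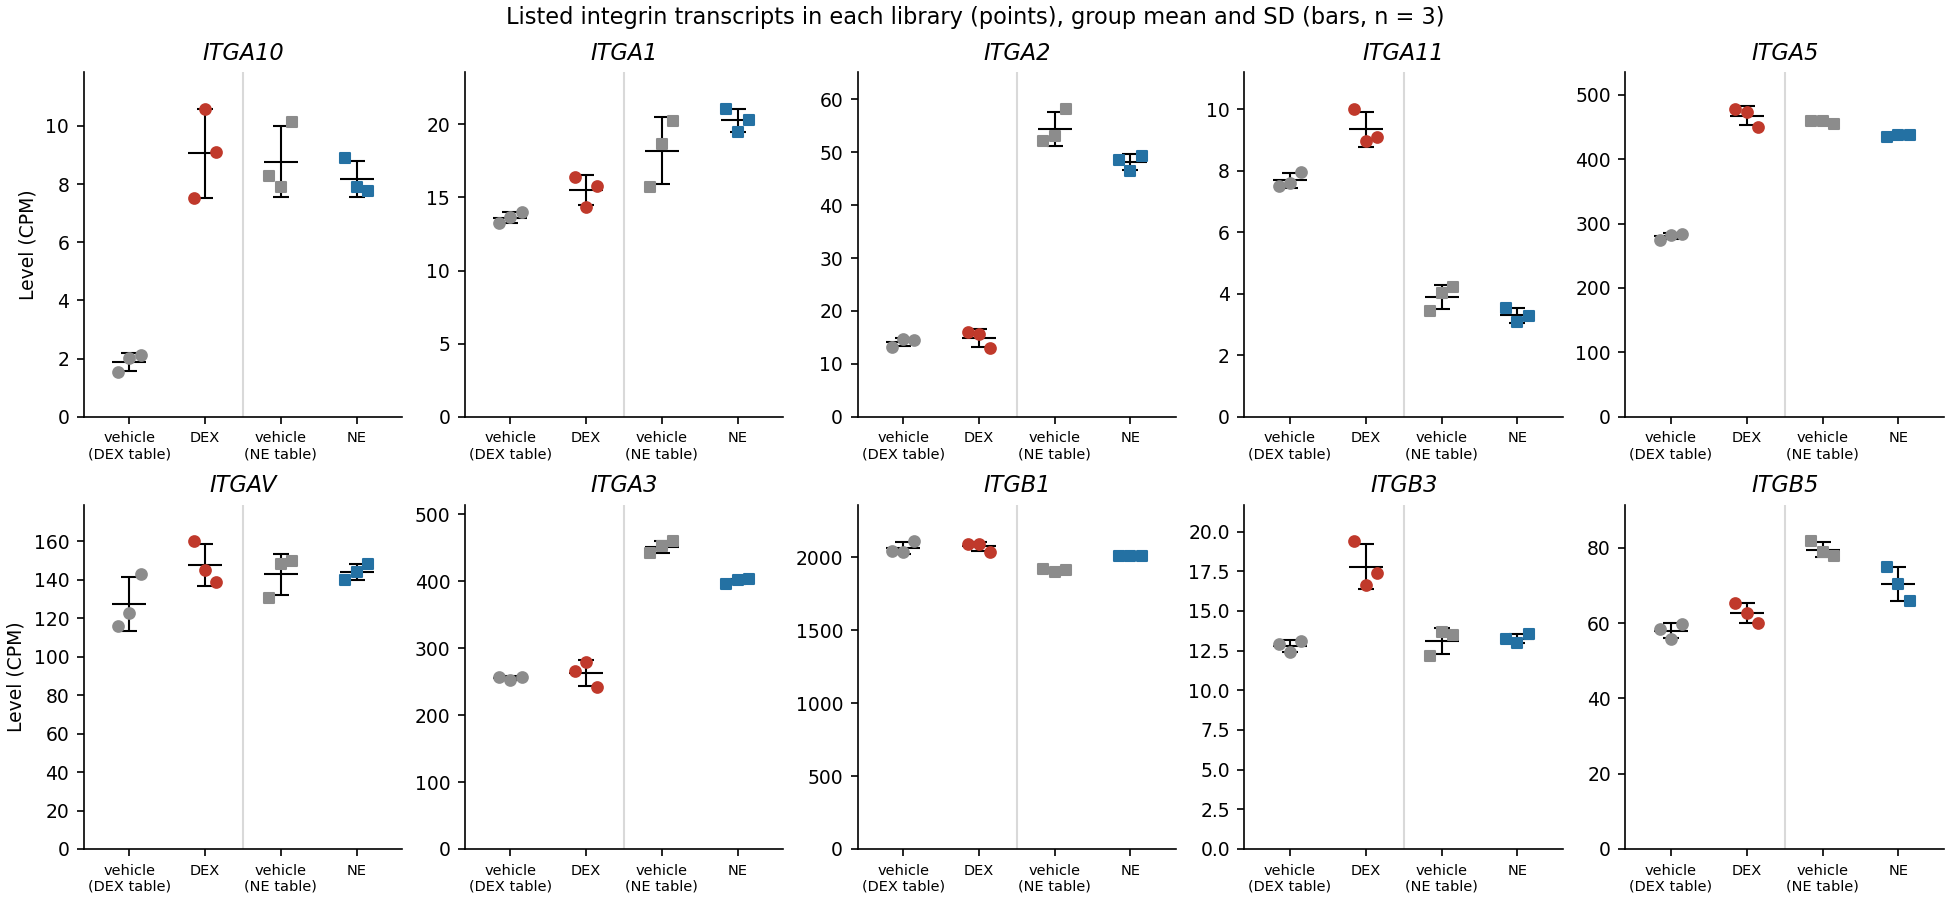
Level of each listed integrin (y axis, CPM, starting at 0) in each of the 12 libraries, by group (x axis), with points for libraries and bars for the mean and SD of 3. ITGA10, ITGA5, ITGB3, ITGA1, ITGA11 and ITGB5 lie higher in all DEX libraries than in their vehicle libraries, as do 15.2% of all genes tested. ITGA10, ITGA2, ITGA3 and ITGA5 are among the genes that stand higher in both groups of the NE table than in the vehicle libraries of the DEX table.

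The other collagen-binding alpha subunits did not share the size of the ITGA10 difference. ITGA1, a receptor subunit for type IV and type I collagen, stood at 13.3, 13.6 and 14.0 CPM with vehicle and 16.4, 14.4 and 15.8 CPM with DEX (log2 fold change 0.18, SE 0.07). ITGA11, which encodes a fibrillar collagen receptor of fibroblasts, stood at 7.51, 7.60 and 7.96 CPM with vehicle and 10.003, 8.95 and 9.10 CPM with DEX (0.28, SE 0.09). In both genes the DEX libraries were all above the vehicle libraries, by 1.14-fold and 1.21-fold. ITGA2, whose product binds type I collagen, was at 13.2, 14.6 and 14.6 CPM with vehicle and 15.9, 15.7 and 12.99 CPM with DEX (0.07, SE 0.09), with overlapping groups.

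With NE, ITGA2 was at 52.1, 53.2 and 58.2 CPM in the vehicle libraries and 48.5, 46.5 and 49.3 CPM in the treated ones (log2 fold change -0.18, SE 0.06, edgeR adjusted p = 0.174). The groups did not overlap, but the difference did not pass the threshold. ITGA1 had 15.7, 18.7 and 20.2 CPM with vehicle and 21.0, 19.5 and 20.3 CPM with NE (0.15, SE 0.09, adjusted p = 0.525). ITGA11 had 3.44, 4.02 and 4.21 CPM with vehicle and 3.54, 3.07 and 3.28 CPM with NE (-0.24, SE 0.12, adjusted p = 0.434). The groups overlapped in both genes.

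The makeup of the collagen-binding group can be compared between genes only per length, here CPM per kb of exons. ITGA10 made up 8.44% ± 0.95 of the summed level of the 4 genes with vehicle and 28.6% ± 4.3 with DEX, and 14.4% ± 1.0 with vehicle and 14.7% ± 0.90 with NE in the other table (SD, n = 3 each). ITGA2 had the highest level of the 4 in every group, with 50.7% ± 0.58, 37.5% ± 2.9, 71.7% ± 1.1 and 69.3% ± 1.1 in the same order. The summed level of the 4 was 3.53 ± 0.18 CPM per kb with vehicle and 5.01 ± 0.24 with DEX, against 9.61 ± 0.72 and 8.77 ± 0.28 in the NE table. ITGA1 made up 20.8% on average with vehicle and 16.7% with DEX, and 10.2% with vehicle and 12.4% with NE. For ITGA11 the averages were 20.1%, 17.2%, 3.72% and 3.46% in that order. All 4 genes thus differed in share both between DEX and its vehicle and between the vehicle libraries of the tables. A share depends on the other genes of the group, and the ITGA2 level itself averaged 14.1 CPM with vehicle and 14.9 CPM with DEX.

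**Figure D2:**
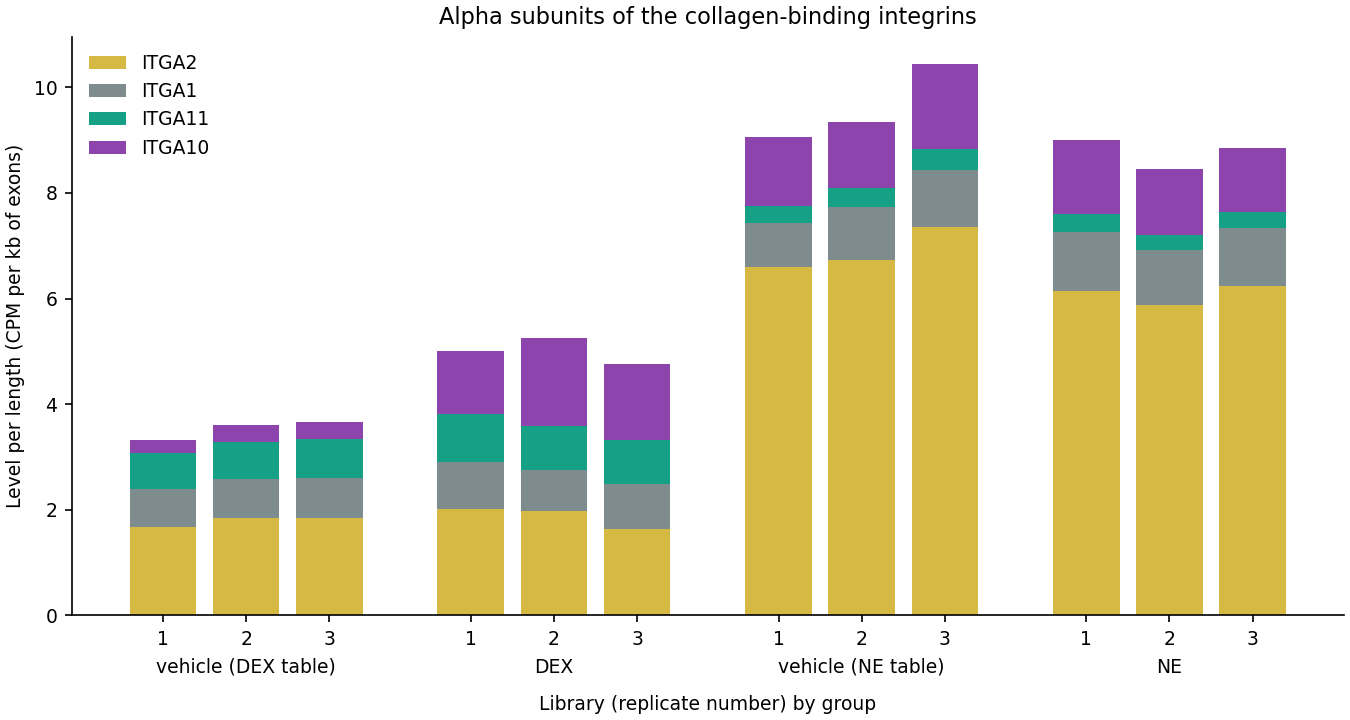
Stacked bars of the level per length (y axis, CPM per kb of exons) of the 4 collagen-binding alpha subunits in each library (x axis, replicate number within group). The ITGA10 segment is 8.44% of the bar on average with vehicle and 28.6% with DEX, while in the NE table ITGA2 makes up 71.7% of the bar with vehicle and 69.3% with NE on average.

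Among the other alpha subunits, ITGA5 (ENSG00000161638.10, chromosome 12, 54395261 to 54419460, minus strand) stood out with DEX. It was at 274.8, 282.2 and 283.0 CPM with vehicle and 477.6, 473.7 and 450.3 CPM with DEX, a 1.67-fold difference (log2 fold change 0.74, SE 0.04) with no overlap. In the NE table the fibronectin receptor subunit was at 458.9, 459.9 and 454.2 CPM with vehicle and 434.0, 437.5 and 438.0 CPM with NE. All NE libraries were lower, by a log2 fold change of -0.07 (SE 0.04, edgeR adjusted p = 0.504) that did not pass the threshold.

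ITGAV was at 116.1, 122.7 and 143.0 CPM with vehicle and 159.9, 145.0 and 138.6 CPM with DEX (log2 fold change 0.21, SE 0.08). The groups overlapped through vehicle replicate 3. The ITGAV log2 fold change with DEX was 0.30 without that library, 0.21 with DESeq2 and 0.22 with no filter on low counts. ITGAV in the NE table was at 130.6, 148.2 and 149.6 CPM with vehicle and 140.0, 143.8 and 148.3 CPM with NE, a log2 fold change of 0.01 (SE 0.06, edgeR adjusted p = 0.951).

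ITGA3 was at 257.1, 252.4 and 256.7 CPM with vehicle and 265.6, 280.0 and 241.7 CPM with DEX (log2 fold change 0.04, SE 0.05). With NE the laminin receptor subunit went from 441.7, 452.1 and 459.6 CPM to 395.6, 401.3 and 403.0 CPM, with no overlap (-0.17, SE 0.04, edgeR adjusted p = 0.07). Of the 10 NE differences this was the nearest to the threshold. It passed with DESeq2 (adjusted p = 0.002) and without vehicle replicate 1 (-0.19, edgeR adjusted p = 0.0157), the library farthest from the others of its group.

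ITGB1, the common beta subunit, was the most abundant integrin transcript. It was at 2040.1, 2032 and 2108 CPM with vehicle and 2094, 2091 and 2037 CPM with DEX (log2 fold change 0.01, SE 0.04), with overlapping groups. The NE table had it at 1922, 1900.3 and 1912 CPM with vehicle and 2009.8, 2005 and 2007 CPM with NE. The NE libraries were all higher, by 0.07 (SE 0.04, edgeR adjusted p = 0.542), without passing the threshold.

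ITGB3 (ENSG00000259207.7, chromosome 17, 47253846 to 47311816, plus strand) was at 12.9, 12.4 and 13.1 CPM with vehicle and 19.4, 16.6 and 17.4 CPM with DEX. This was a 1.39-fold difference (log2 fold change 0.47, SE 0.08) with no overlap, on 240 to 467 counts per library. With NE it was at 13.2, 12.99 and 13.5 CPM against 12.2, 13.7 and 13.5 CPM (0.01, SE 0.07, edgeR adjusted p = 0.954). ITGB5, which pairs with ITGAV, was at 58.4, 55.8 and 59.7 CPM with vehicle and 65.2, 62.6 and 60.0 CPM with DEX (0.11, SE 0.05), where the groups did not overlap. In the NE table ITGB5 was at 81.7, 79.0 and 77.9 CPM with vehicle and 75.0, 70.3 and 65.8 CPM with NE (-0.18, SE 0.06, edgeR adjusted p = 0.183). The NE groups of ITGB5 did not overlap, but the difference did not pass the threshold.

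Counted together, 3 of the 10 listed genes (ITGA10, ITGA5 and ITGB3) passed the threshold upward with DEX, beside 10.1% of all 15133 genes in either direction (6.65% upward and 3.46% downward), and none passed it downward. All 10 had log2 fold changes above 0, with a median of 0.20 against -0.01 over all genes tested. In 6 of them the DEX libraries lay wholly above the vehicle libraries. Of all genes 28.2% had groups apart in this way, 15.2% above and 13.1% below. Since this contrast was used to make the list, nothing is read from these counts. With NE, none of the 10 passed, beside 2.82% of 15630 genes (1.48% upward and 1.34% downward). At an unadjusted p under 0.05 there were 3 (ITGA2, ITGA3 and ITGB5, all lower), beside 13.9% of all genes, and DESeq2 passed 1. A fit with the replicate number as a block passed these 3, and 1688 of all 15630 genes. The NE libraries lay wholly below their vehicle libraries in 4 and wholly above in 1, beside 9.99% and 11.1% of all genes (21% together), and the median log2 fold change was -0.09 against 0.00 over all genes.

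**Figure D3:**
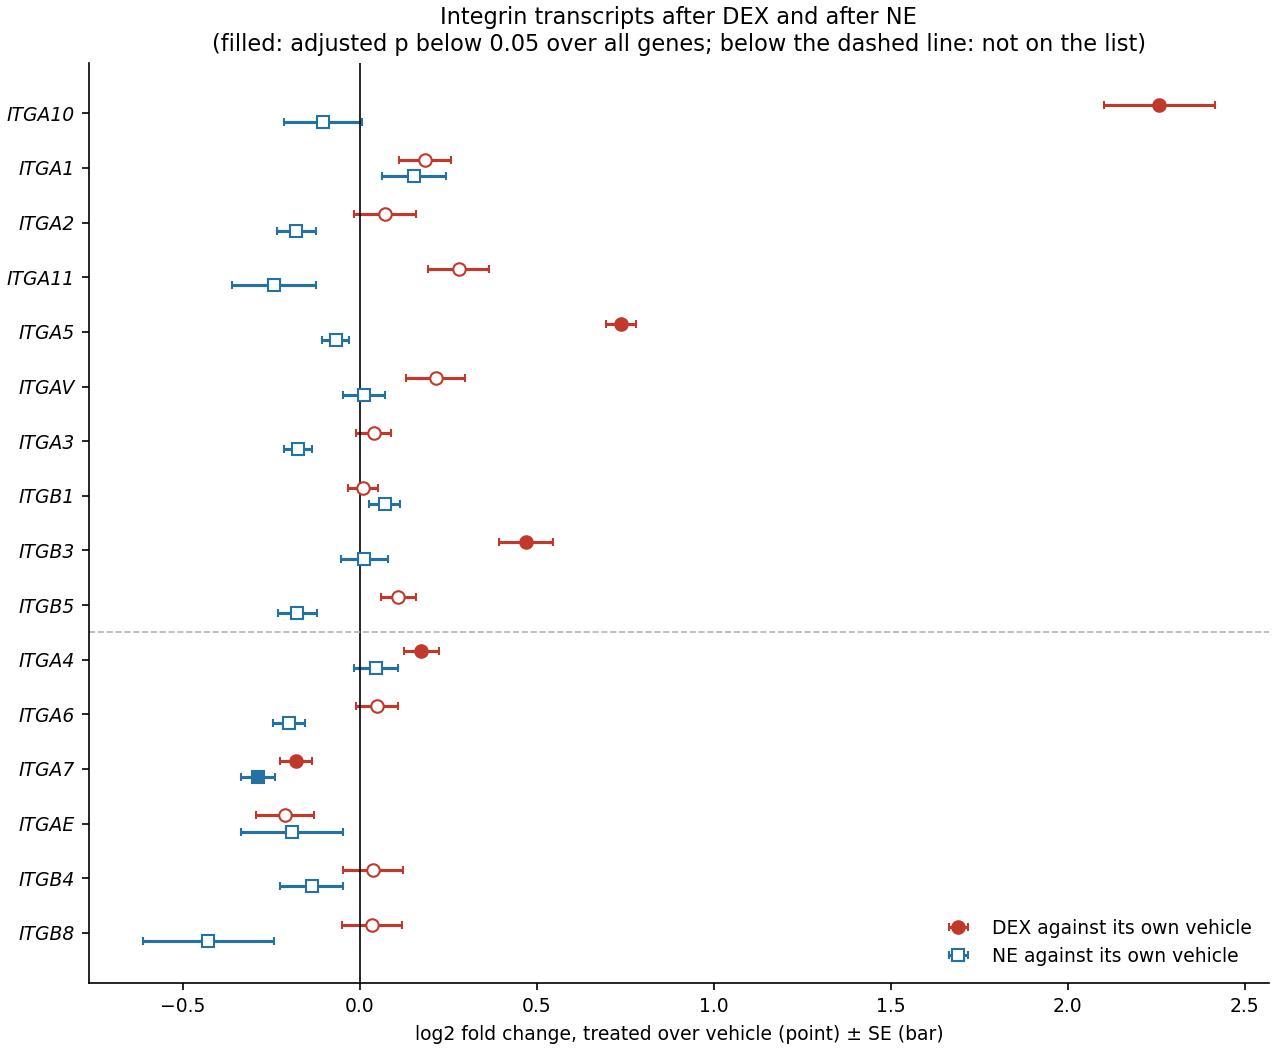
The log2 fold change of treated over vehicle (x axis, point, with the SE as a bar) for the 10 listed integrins and, under the dashed line, for 6 others with a level above 3 CPM in every library. Filled points passed an adjusted p of 0.05 over all genes. For the listed integrins the filled DEX points are a description, since this contrast was used to make the list. ITGA10 with DEX, at 2.26, is the farthest point from 0, and no listed integrin has a filled NE point.

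The order of the levels per kb was set by a few subunits. In the vehicle libraries of the DEX table ITGB1 led with 342.7 CPM per kb, followed by ITGA5 (37.0), ITGA3 (26.1), ITGAV (15.5), ITGB5 (8.99), ITGB3 (2.92), ITGA2 (1.79), ITGA1 (0.734), ITGA11 (0.708) and ITGA10 (0.299). ITGA1 and ITGA11 overlapped in range, and the other neighbours did not. With DEX, ITGA10 stood 8th at 1.43 CPM per kb and overlapped ITGA2 (1.88), with ITGA11 (0.861) and ITGA1 (0.835) below it. In the NE table the order in both groups was ITGB1, ITGA5, ITGA3, ITGAV, ITGB5, ITGA2, ITGB3, ITGA10, ITGA1 and ITGA11, with no neighbours overlapping. There ITGA10 had 1.39 CPM per kb with vehicle and 1.29 with NE, and with the longest transcript as length it fell behind ITGA1 to rank 9 in both groups. ITGB1 held 71.6% ± 0.25 of the summed level of the 26 integrin genes with vehicle and 67.4% ± 0.47 with DEX, and 61.2% ± 0.63 and 64.1% ± 0.087 in the NE table.

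**Figure D4:**
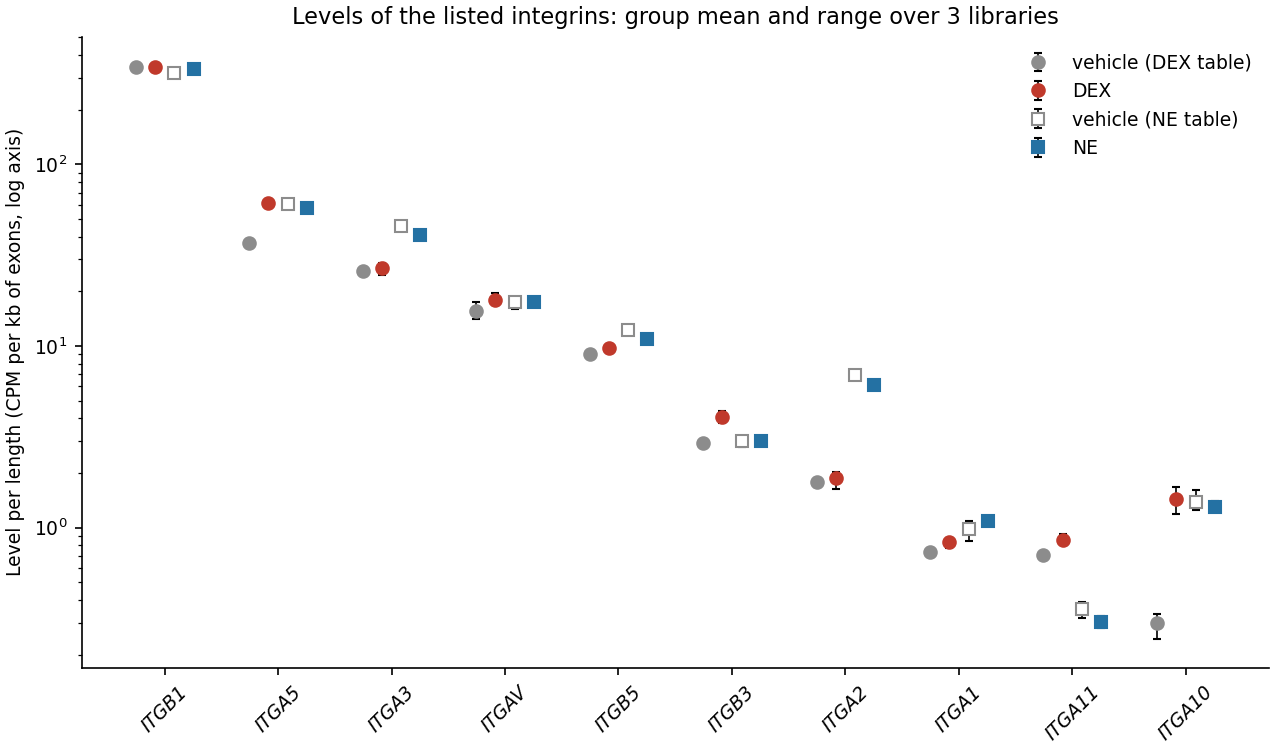
Level per length (y axis, CPM per kb of exons, log axis) of the listed integrins (x axis, in the order of the vehicle libraries of the DEX table), with the mean of each group as a point and the range over 3 libraries as a bar. ITGB1 lies between 318 and 345 CPM per kb in every group, while ITGA10 is at 0.299 with vehicle in the DEX table and between 1.29 and 1.43 in the other 3 groups.

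The vehicle libraries of the 2 tables differed in these genes, a comparison made after the values were seen and given with no test. On a common TMM scale over 15952 genes, ITGA10 was 1.94 ± 0.31 CPM in the vehicle libraries of the DEX table, 9.26 ± 1.6 with DEX and 8.57 ± 1.2 in the vehicle libraries of the NE table (SD, n = 3 each). On the log2(CPM + 0.5) scale, which understates the distance of low genes, the vehicle of the NE table stood 1.90 higher, a distance reached by 0.702% of genes. On the same scale ITGA2 stood 1.84 higher there, ITGA3 0.75 and ITGA5 0.64, while ITGA11 stood at -0.97 (7.88 ± 0.24 and 3.80 ± 0.39 CPM) and the other listed genes within 0.38 of 0. Of all genes, 4.23% lay over 2-fold apart on this scale. The glucocorticoid target FKBP5 was at 127 ± 6.8 CPM, 378 ± 9.7 with DEX and 204 ± 10 in the NE-table vehicle, TSC22D3 was at 7.95 ± 0.67, 106 ± 5.2 and 11.3 ± 0.34, and PER1 was at 26.8 ± 1.2, 130 ± 10 and 12.8 ± 0.91. Culture set and sequencing or processing run cannot be told apart here, and the DEX and NE effects on ITGA10 were measured from these different starting levels.

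Of the 16 human integrin genes not on the list, 11 were tested with DEX and 12 with NE. The alpha 4 subunit ITGA4, which binds fibronectin and VCAM1, rose with DEX (log2 fold change 0.17, SE 0.05, edgeR adjusted p = 0.0364). The laminin receptor subunit ITGA7 fell with DEX (-0.18, SE 0.04, adjusted p = 0.0175) and with NE (-0.29, SE 0.05, adjusted p = 0.0198). ITGA7 was at 98.1, 97.6 and 102 CPM with vehicle and 84.5, 90.2 and 88.6 CPM with DEX. It was at 82.9, 89.7 and 87.4 CPM with vehicle and 73.3, 71.3 and 68.4 CPM with NE, and neither pair of groups overlapped. These calls were not firm. The ITGA4 call ended without vehicle replicate 1 or 2 or DEX replicate 1 or 2 (adjusted p 0.125 to 0.154), with DESeq2 (0.0612) and in the fit of all 12 libraries (0.095). The ITGA7 call ended without vehicle replicate 2 or DEX replicate 1 (0.0583 and 0.0864) with DEX, and without vehicle or NE replicate 2 or 3 (0.0861 to 0.131) with NE.

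Among the rest, the laminin receptor subunit ITGA6 was at 138.1, 142.9 and 151.6 CPM with vehicle and 126.2, 124.4 and 125.8 CPM with NE (log2 fold change -0.20, edgeR adjusted p = 0.0628). It passed with DESeq2 (adjusted p = 0.0119), with no filter on low counts (edgeR adjusted p = 0.0486) and without vehicle replicate 1 (edgeR adjusted p = 0.00791). ITGB8, a partner of ITGAV, had -0.43 with NE (adjusted p = 0.358) and passed without vehicle replicate 1 (-0.60, adjusted p = 0.0279). ITGAE, a partner of ITGB7, had -0.21 with DEX (adjusted p = 0.135) and passed without vehicle replicate 3 (-0.28, adjusted p = 0.0378). ITGA2B, ITGA9, ITGAL, ITGAX, ITGB4 and ITGB7 passed with neither treatment, nor did ITGAM, which was tested with NE only. The leukocyte subunits ITGB2 and ITGAD, the epithelial subunit ITGB6 and ITGA8 had at most 9 counts in any library and were tested with neither.

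Of 15 tested ligands of RGD-binding integrins 8 rose with DEX and none fell, with a median log2 fold change of 0.19. Over all genes tested with DEX 6.65% rose and 3.46% fell with a median of -0.01, the background for this and the following lists, which were chosen with earlier results known. The matrix glycoprotein THBS1 rose by 0.64 (SE 0.04), the matricellular CCN2 by 0.60 (SE 0.04), and the microfibril proteins FBN2 by 0.56 (SE 0.10) and FBN1 by 0.36 (SE 0.07), with edgeR adjusted p of at most 0.013. The FBN2 call ended without DEX replicate 1, 2 or 3 (adjusted p 0.0524 to 0.0717), and the FBN1 call ended in the fit of all 12 libraries (0.0521). The call of MFGE8 (0.15, SE 0.04) ended without vehicle replicate 2 or 3 or any one DEX library (0.0589 to 0.132). That of NID1 (0.22, SE 0.05) ended without vehicle or DEX replicate 1 or 2 (0.0562 to 0.0998). Of 14 tested collagens 3 rose and none fell (median 0.09): COL6A3 by 0.29 (SE 0.05), COL5A1 by 0.22 (SE 0.05) and COL5A2 by 0.15 (SE 0.04), with adjusted p of at most 0.0426. COL5A1 lost its call without DEX replicate 2 (0.0577), and COL5A2 without any library except vehicle replicate 3 (0.0576 to 0.186). Of 9 laminin chains 3 rose and none fell (median 0.11): LAMA3 by 0.32 (SE 0.08), LAMA4 by 0.28 (SE 0.05) and LAMC1 by 0.25 (SE 0.05), with adjusted p of at most 0.0235. LAMA3 lost its call without vehicle or DEX replicate 1 or 2 (0.0533 to 0.121) and LAMC1 without DEX replicate 2 (0.0608).

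Of 12 talin, kindlin and actin-linking genes 3 rose with DEX and 1 fell (median log2 fold change 0.09). The actin regulator ENAH rose by 0.43 (SE 0.05), the kindlin FERMT2 by 0.27 (SE 0.05) and zyxin (ZYX) by 0.16 (SE 0.04), and TES, a zyxin partner, fell by 0.14 (SE 0.04), with edgeR adjusted p of at most 0.0495. ZYX and TES both lost their calls without vehicle replicate 2 or 3 or any one DEX library (adjusted p 0.0527 to 0.146). Of 24 adhesion scaffolds and kinases 5 rose and 1 fell (median 0.06). The docking protein NEDD9 rose from 11.7 to 26.6 CPM (1.18, SE 0.09), the kinase PTK2B by 0.39 (SE 0.07) and TGFB1I1, a paxillin relative, by 0.28 (SE 0.05), while the tensin TNS3 fell by 0.27 (SE 0.07), with adjusted p of at most 0.0339. TNS3 lost its call without vehicle replicate 2 or any one DEX library (0.0505 to 0.124). The kinases PTK2 (0.18, SE 0.04) and FYN (0.20, SE 0.05) made up the rest of those that rose. PTK2 lost its call without vehicle replicate 2 or DEX replicate 1 (0.101 and 0.0691), and FYN without vehicle or DEX replicate 2 (0.064 and 0.0809). Of 5 inhibitors of integrin activation none passed with edgeR, while 1 had an unadjusted p under 0.05.

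Of 12 membrane partners 1 rose and 2 fell with DEX. Caveolin 1 (CAV1) rose by 0.30 (SE 0.04), the urokinase receptor PLAUR fell by 0.40 (SE 0.07) and the proteoglycan SDC4 fell by 0.24 (SE 0.04), with edgeR adjusted p of at most 0.00284. The list median was a log2 fold change of -0.05.

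With NE 1.48% of all genes tested rose and 1.34% fell. Of 15 RGD-type ligands 1 rose and 2 fell: THBS1 fell by 0.62 (SE 0.06), from 87.5 to 56.9 CPM, and CCN1, a matricellular relative of CCN2, fell by 0.63 (SE 0.05), from 190.2 to 123 CPM. The fibrinogen chain FGB rose by 3.02 (SE 0.38) on only 2 to 23 counts per library, and the edgeR adjusted p of these 3 was at most 0.00497. No collagen of 15, laminin chain of 9 or actin linker of 12 passed with edgeR (2, 1 and 1 had an unadjusted p under 0.05). Of 5 activation inhibitors DAB2 fell (-0.29, SE 0.06, adjusted p = 0.039), and of 24 scaffolds NEDD9 (0.49, SE 0.10, adjusted p = 0.0446) and TNS4 (1.28, SE 0.27, adjusted p = 0.0458, 6 to 17 counts) rose.

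Among the lists of ligands and partners, membrane partners had the lowest NE median, a log2 fold change of -0.20, with 3 of 12 lower and none higher. CAV1 fell by 0.33 (SE 0.04), the proteoglycans SDC1 by 0.32 (SE 0.06) and SDC4 by 0.25 (SE 0.04), with edgeR adjusted p of at most 0.0246. Of these 9 NE calls 6 ended when some or all of the libraries were left out in turn, with log2 fold changes of 1.19 to 1.38 for TNS4, 0.42 to 0.52 for NEDD9, -0.31 to -0.26 for DAB2, -0.27 to -0.23 for SDC4, -0.33 to -0.28 for SDC1 and -0.34 to -0.32 for CAV1. TNS4 lost its call without any one library, DAB2 and SDC4 without any library except vehicle replicate 1, and NEDD9 without vehicle replicate 2 or any one NE library (adjusted p 0.0535 to 0.202). SDC1 lost its call without vehicle replicate 3 or NE replicate 2 or 3 (0.0869 to 0.127), and CAV1 without NE replicate 2 or 3 (0.0547 and 0.06). TNS4 also lost it with DESeq2 (0.297) and with no filter (0.0925). THBS1, CCN1 and FGB passed without each library in turn.

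**Figure D5:**
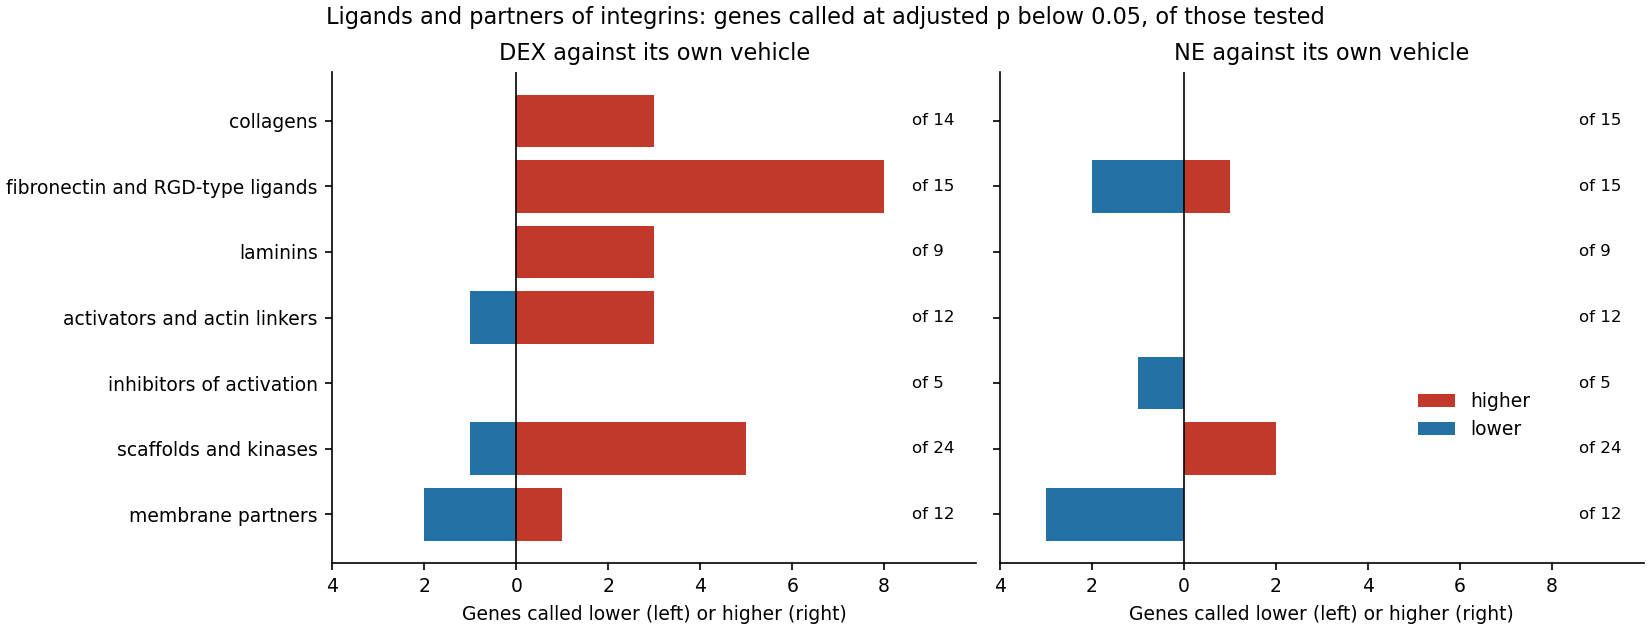
Number of genes of each list that passed an adjusted p of 0.05 (x axis, lower to the left and higher to the right) with DEX and with NE, with the number tested at the right edge. RGD-type ligands have the most calls with DEX, 8 of 15, all higher, and membrane partners have 3 lower of 12 with NE. In both lists some of these calls ended when a library was left out.

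The genes whose level followed ITGA10 most closely over the 12 libraries, after the mean of each table was removed, were CAVIN2 (Pearson r = 0.984), TNFRSF21 (0.980), ABTB3 (0.980), ASAP2 (0.977), HLX (0.976) and AOX1 (0.976), out of 11875 genes with an average log2 CPM of at least 1 in both tables. Of the listed integrins ITGA5 came nearest, at rank 9 (r = 0.974), ITGB3 was at rank 284 (0.880) and ITGA11 at rank 1076 (0.685). The values are a description, since they rest mostly on the DEX libraries against the vehicle libraries of the same table. That contrast was used to make the list, so the ranks of the listed genes largely restate their DEX differences. The first 6 had DEX log2 fold changes of 0.73 (ABTB3) to 1.75 (HLX) and NE values of -0.10 (CAVIN2) to 0.13 (HLX). In the vehicle libraries AOX1 stood 1.38 higher on the log2(CPM + 0.5) scale in the NE table, ABTB3 0.78, ASAP2 0.70 and CAVIN2 0.43, while HLX stood at -0.31 and TNFRSF21 at -0.67.

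Checks of cell type and counting bear on these values. Of 12 trabecular meshwork markers, 9 in the DEX table and 6 in the NE table were above 1 CPM in every library, and MYOC, ANGPTL7 and AQP1 had at most 6, 11 and 8 counts per library. The summed trabecular meshwork markers were at 1062 to 1064 CPM with vehicle and 1169 to 1206 CPM with DEX. In the NE table they were at 1215 to 1278 CPM with vehicle and 1070 to 1081 CPM with NE. CAV1 was the largest part, on average 670 and 822 CPM, and 913 and 725 CPM, in that order. Summed epithelial markers were at 567 to 591 CPM with vehicle and 455 to 471 CPM with DEX, and at 340 to 424 and 267 to 299 CPM in the NE table, with KRT18 lower in both. Summed markers of chondrocytes, where ITGA10 is best known, were at 35.8 to 36.9 CPM with vehicle and 34.6 to 36.3 CPM with DEX, and at 61.3 to 63.5 and 49.7 to 54.8 CPM in the NE table, where SOX9 fell. COL2A1 had at most 19 counts. Summed endothelial markers were between 6.05 and 9.70 CPM, platelet markers between 1.94 and 4.16 CPM, and muscle and pericyte markers between 434 and 493 CPM over all groups. Summed immune markers were at 28.4 to 31.3 CPM in the DEX table and 61.6 to 72.2 CPM in the NE table, most of it CD68, and CD3E and GP9 were at 0 in all libraries. The part of these levels in the integrin values was not tested, and in bulk RNA fewer cells of a type and less RNA per cell cannot be told apart. PELO lies within ITGA1 on the same strand, shares exons with it and had 30.9 to 38.5 CPM, more than ITGA1 itself, so the ITGA1 values are uncertain. The protein-coding gene AC068234.1 overlaps exons of ITGB3 on the same strand and had at most 8 counts in any library. GENCODE 29 antisense genes overlap exons of ITGA1, ITGA5, ITGA10 and ITGAV, and ITGB1-DT on the opposite strand overlaps exons of ITGB1. Whether counting used strand is not given in the sources used here.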

How the data were processed

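RNA from 9 labelled samples was measured. The authors deposited expected counts (estimated counts that may hold fractions) in 2 tables of 6 libraries each; the unit was inferred from the numbers themselves. For the aligner, the counting tool, the build, strandedness and the kit, the sources used here give nothing. Rounding to whole counts moved library totals by at most 0.000918%. Symbols matched 34436 of 37247 identifiers. Gene positions and lengths came from GENCODE 29 on GRCh38, which holds 33694 identifiers with the same version.

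Treated and vehicle libraries of the same table were compared by the quasi-likelihood test of edgeR 4.0.16 in R 4.3.3 (robust, filterByExpr, TMM), two-sided, with Benjamini-Hochberg adjustment over all genes tested and a threshold of 0.05. The procedure was tested on simulated counts, with low-count genes left out and the same variability for every gene. That run does not cover calls on few counts, such as FGB and TNS4, or a library that stands apart from its group. DESeq2 1.42.0, other filters and size factors, a replicate block, a fit of all 12 libraries, other gene lengths and leaving out each library were alternatives. The likeness to ITGA10 and the comparison of the vehicle libraries of both tables used log2(CPM + 0.5).

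The members and the lists of ligands, partners and markers were chosen with earlier results of these data known, so no list result is independent support. Of the laminin list, 1 gene is not reported here and was left out of the list's counts. Named were all listed integrins, the other tested integrins, up to 4 passing genes per list and comparison with the largest change, the 6 genes most like ITGA10, and FKBP5, TSC22D3, PER1 and NR4A3 as treatment checks. MFGE8, NID1, PTK2 and FYN were named besides, for DEX calls that ended in some fits. With 3 libraries per group, precision is limited to the SEs given. Each SE was worked back from the edgeR log2 fold change and its test statistic, whose variance estimate also draws on other genes.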

Additional observations from a re-analysis of the deposited data

How the results depend on the processing

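Over all genes, 1530 passed with DEX and 983 to 1835 when a library was left out. With NE 441 passed, 1688 with the replicate block, 702 in the fit of all 12 libraries and 150 to 658 when a library was left out. The replicate numbers were not shown to pair the samples. With DEX, same-numbered deviations correlated at -0.11 to 0.04 and different-numbered ones at -0.08 to 0.105. With NE, same-numbered deviations correlated at 0.04 to 0.18, all above the mostly negative different-numbered ones (-0.13 to 0.04) or near the highest of them. Whether the NE samples were paired is not given, and the main fits used no block. Listed integrins higher with DEX numbered 3, and 3 to 4 when a library was left out, where ITGAV was the gene added. These DEX counts describe the list and are no test of it. Listed integrins lower with NE numbered 0, but 1 with DESeq2, 3 with the replicate block (ITGA2, ITGA3 and ITGB5) and 0 to 1 when a library was left out. In the ligand and partner lists, 23 rose and 4 fell with DEX. Leaving out a library gave 14 to 25 and 2 to 4, and the replicate block gave 2 lower. With NE 3 rose and 6 fell. The replicate block gave 9 and 23, the fit of all 12 libraries 5 and 11, DESeq2 12 lower, and leaving out a library 1 to 4 and 2 to 13. Among single genes the replicate block also passed ITGA6 (adjusted p = 0.000964) and ITGB8 (0.0359) with NE and ended the DEX calls of ITGA4 (0.123), ITGA7 (0.0699), COL5A2 (0.162), ZYX (0.126), TES (0.155) and TNS3 (0.0531). It also ended those of MFGE8 (0.122), NID1 (0.0646), PTK2 (0.0562) and FYN (0.0554). The fit of all 12 libraries ended those of ITGA4 (0.095), FBN1 (0.0521), NID1 (0.11), COL5A1 (0.0506), COL5A2 (0.0626), LAMA3 (0.0946), ZYX (0.0645) and TNS3 (0.0791). TES lost its call with DESeq2 (0.0602) and other size factors (0.0506). The cause of these shifts was not tested. With the longest transcript as length, ITGA10 made up 15.6% and 15.7% of the collagen-binding group in the vehicle and NE libraries of the NE table, and stood at rank 9 in both.

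Small differences changed sign when single libraries were left out. With DEX the log2 fold change then ranged from -0.0145 to 0.0949 for ITGA3, -0.00085 to 0.0222 for ITGB1, -0.0029 to 0.0991 for ITGA6, -0.15 to 0.30 for ITGAL, -0.34 to 0.27 for ITGAX, -0.0135 to 0.0984 for ITGB4, -0.0299 to 0.15 for ITGB7 and -0.0125 to 0.0825 for ITGB8. With NE it ranged from -0.18 to 0.0171 for ITGA10, -0.0483 to 0.0471 for ITGAV, -0.0373 to 0.0444 for ITGB3, -0.12 to 0.43 for ITGA2B, -0.0074 to 0.0871 for ITGA4, -0.17 to 0.14 for ITGA9 and -0.14 to 0.24 for ITGAL. NE vehicle replicate 1 stood apart from replicates 2 and 3 (chi-square over its degrees of freedom was 16.1 and 19.5 with them and 2.86 for replicate 2 with 3).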
